A study of Mus musculus with 4 samples.

Results

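The baseline transcriptome of wild-type (WT) cardiac endothelium was read from 1 RNA sequencing library, prepared from heart endothelial cells of the saline-injected WT group. Genes were ranked by FPKM, in which the fragments read from a gene are divided by the length of its transcripts and by the depth of the library, and every gene of at least 1 FPKM was kept. FPKM is a value per length, so that levels of different genes can be set side by side. This gave 12343 of the 45882 gene IDs of the table (26.9%). Among nuclear protein-coding genes, 11277 of 21508 IDs reached 1 FPKM (52.4%), and the median of all 21508 was 1.37 FPKM.

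The library is 1 of 4 in the series, and the other 3 come from Smad3 knockout or doxorubicin-treated mice that are not described here. The labels give WT, male sex and an age of 20 wk. The series used weekly tail vein injections of saline, 4 in all, from 7 wk of age in place of doxorubicin, and took the hearts 9 wk after the last of them. Hearts were perfused to wash out blood, minced and digested with collagenase, and the cells were bound to magnetic beads against CD31, the product of Pecam1, and passed over a column in 2 rounds of selection. How many hearts went into the library is not given in the sources used here. There was no replicate, so no value below carries an error between animals and no test was made.

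Endothelial cells line every vessel of the heart. Most of them form the capillaries that run between cardiomyocytes, and smaller numbers line arteries, veins, lymphatic vessels and the chambers, where they are called endocardium. They pass fatty acids and glucose to the muscle, hold blood and tissue apart through cell junctions and a basement membrane, keep the vessel wall free of clots, and answer to flow, hormones and growth factors through surface receptors. Their identity is held by transcription factors of the ETS, SOX, KLF, GATA and forkhead families.

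The depth of the library was estimated from the values themselves. For 424 low protein-coding genes that have 1 annotated transcript, 79% of the FPKM values lay within 0.1 of a whole number of fragments at 28480000 mapped fragments and an effective transcript length 280 bases below the annotated length. At this depth a gene with 2000 bases of effective length and 1 FPKM rests on about 57 fragments, for which the exact Poisson 95% interval corresponds to 0.757 to 1.3 FPKM. With 500 bases the same level rests on 14.2 fragments, with an interval of 0.55 to 1.67 FPKM. These intervals cover counting error only. No fragment of a gene of 2000 bases allows up to 0.0527 FPKM (3 fragments), close to the lowest value of the table, 0.05, at which 26273 IDs stood and which stands in for undetected genes. Genes just inside the limit were BC052040 (1.0019 FPKM), Gm5518 (1.0033 FPKM) and Neurl2 (1.0037 FPKM), and those just outside were Sbsn (0.9998 FPKM), Mtrf1 (0.9992 FPKM) and Anln (0.9983 FPKM), none of which is told apart from its neighbours across the limit by counting.

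The levels covered more than 4 orders of magnitude. Of the genes kept, 6556 stood between 1 and 10 FPKM, 5098 between 10 and 100 FPKM, 622 between 100 and 1000 FPKM and 67 at 1000 FPKM or more. Their median was 9.08 FPKM, with 3.57 FPKM at the lower and 22.8 FPKM at the upper quartile. The 10 highest IDs held 13% of the summed FPKM, the 100 highest 37.7% and the 1000 highest 70%.

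**Figure D1:**
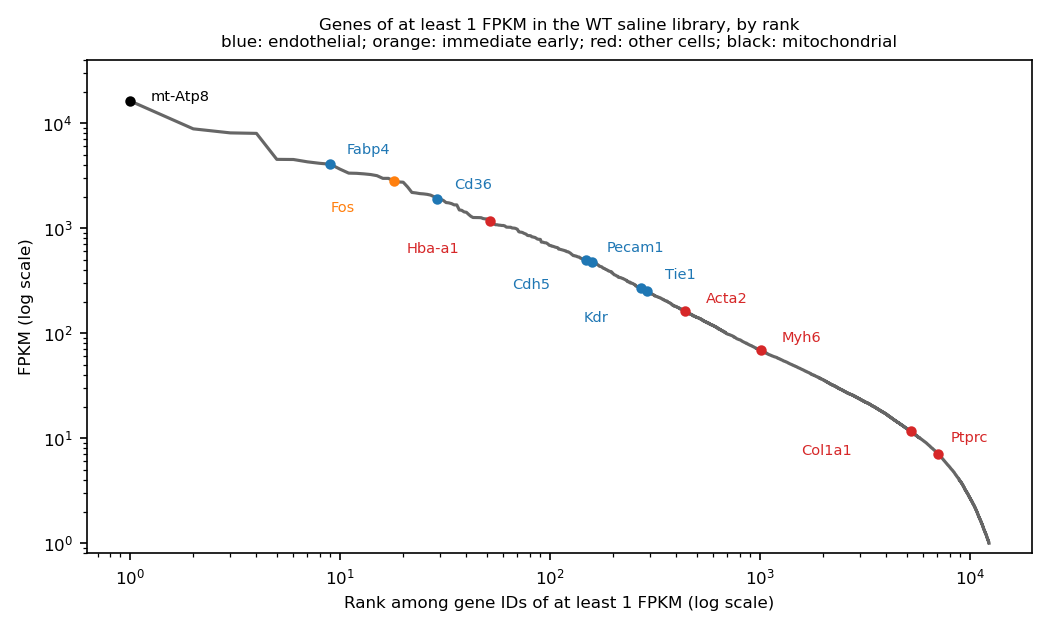
FPKM of the 12343 gene IDs of at least 1 FPKM in the WT saline library against their rank, both on log scales, with 13 genes marked by the colours given in the title. The 4 endothelial markers Pecam1, Cdh5, Tie1 and Kdr lie at ranks 149, 158, 272 and 289, and the leukocyte gene Ptprc lies near the foot of the curve at 7.06 FPKM.

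The label was checked first. All 4 markers given for these cells ranked at 253 or better among nuclear protein-coding genes. Pecam1, the adhesion molecule CD31 of endothelial contacts (ENSMUSG00000020717; GRCm38 chromosome 11, 106654217 to 106750628, minus strand), had 499 FPKM and ranked 120 among nuclear protein-coding genes. Cdh5, the cadherin of endothelial junctions (ENSMUSG00000031871; chromosome 8, 104101625 to 104144511, plus strand), had 475 FPKM and ranked 128. Tie1, an orphan receptor kinase of endothelium (ENSMUSG00000033191; chromosome 4, 118471191 to 118490061, minus strand), had 272 FPKM and ranked 236. Kdr, the main signaling receptor for VEGF (ENSMUSG00000062960; chromosome 5, 75932827 to 75978458, minus strand), had 253 FPKM and ranked 253. No other gene of at least 1 FPKM overlaps any of them in the annotation. The cells were selected through the Pecam1 protein, so the level of Pecam1 is no independent check, while Cdh5, Tie1 and Kdr were not used in the selection.

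A list of 24 genes of endothelium in general was found whole. All 24 reached 1 FPKM, 21 reached 100 FPKM, and the median was 180 FPKM, against a median of 1.37 FPKM over all nuclear protein-coding genes. Of all nuclear protein-coding genes 52.4% reached 1 FPKM, which is the background for the list counts below as well. This list and those of vessel types and other cells were chosen with earlier results of these data known. Their counts are therefore no independent check of the label. After Pecam1 and Cdh5 came Eng at 474 FPKM, a co-receptor for bone morphogenetic proteins, Esam at 357 FPKM, an adhesion molecule of tight junctions, and Flt1 at 290 FPKM, the decoy receptor for VEGF. Lower in the list stood the nitric oxide synthase Nos3 (109 FPKM), the angiopoietin receptor Tek (99.4 FPKM), the ETS factor Erg (55.3 FPKM) and the surface lectin Clec14a (24.2 FPKM), which was the lowest. This list took 1.03% of the summed FPKM of the library.

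Promoters of the general endothelial genes are shown because these genes share a cell type and because ETS factors, which bind a GGAA core, were among the factors found in the library. The RefSeq table (GRCm38.p6) held 19 start sites of 14 of the 24 genes, and the 250 bases before each start were searched on both strands. Searched for were the letters CCGGAA and the variant CAGGAA, which hold the ETS core. Boxes of other factors were CCACCC for the KLF family and AGATAA for the GATA family. Further boxes were AACAAT for the SOX family and TATAAA for the TATA-binding protein. CAGGAA was in 11 of the 19 windows (57.9%), from 9 genes, against 25.7% of all 32851 windows of the same length and 22.6% of the 11470 windows of nuclear protein-coding genes of at least 1 FPKM. CCGGAA was in 2 of the 19 windows (10.5%), against 12% of all windows and 21.5% of those of nuclear protein-coding genes of at least 1 FPKM. The windows are few, start sites of the same gene are not independent, and a match describes letters and not a bound site. The KLF, GATA, SOX and TATA boxes were in 26.3%, 5.26%, 15.8% and 10.5% of the 19 windows, against 28.1%, 9.99%, 9.42% and 12.4% of all windows. In windows of nuclear protein-coding genes of at least 1 FPKM the shares were 33.1%, 5.72%, 5.14% and 6.34%. Printed are the windows of the markers Tie1 (chr4:118489850-118490099, minus strand) and Kdr (chr5:75978456-75978705, minus strand), and of the 2 highest other genes with a single start in the table and a CAGGAA match, Cd34 (chr1:194938571-194938820, plus strand) and Emcn (chr3:137340828-137341077, plus strand). Capitals mark a match to CCGGAA or to CAGGAA on either strand, and the last base of each window is the base before the RefSeq start.
Tie1 promoter: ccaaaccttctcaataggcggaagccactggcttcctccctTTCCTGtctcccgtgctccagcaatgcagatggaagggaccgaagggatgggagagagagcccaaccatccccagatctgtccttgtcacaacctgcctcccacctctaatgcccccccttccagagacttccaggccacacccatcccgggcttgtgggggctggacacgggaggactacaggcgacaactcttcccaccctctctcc
Kdr promoter: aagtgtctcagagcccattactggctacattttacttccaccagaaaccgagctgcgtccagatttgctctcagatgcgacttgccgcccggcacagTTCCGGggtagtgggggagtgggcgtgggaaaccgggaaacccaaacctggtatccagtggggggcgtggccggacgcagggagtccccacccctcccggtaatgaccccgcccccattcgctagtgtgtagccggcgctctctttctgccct
Cd34 promoter: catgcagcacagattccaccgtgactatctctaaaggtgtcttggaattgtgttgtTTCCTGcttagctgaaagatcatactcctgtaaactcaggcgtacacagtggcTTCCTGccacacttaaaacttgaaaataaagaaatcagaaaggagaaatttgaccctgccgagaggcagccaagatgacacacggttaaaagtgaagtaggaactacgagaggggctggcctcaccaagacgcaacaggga
Emcn promoter: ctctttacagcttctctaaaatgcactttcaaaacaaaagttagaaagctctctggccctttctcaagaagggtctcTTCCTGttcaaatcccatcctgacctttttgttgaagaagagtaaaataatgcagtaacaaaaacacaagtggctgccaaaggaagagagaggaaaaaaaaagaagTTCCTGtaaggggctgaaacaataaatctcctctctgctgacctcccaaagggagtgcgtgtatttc
The Tie1 window held 1 CAGGAA match, the Kdr window 1 CCGGAA match, and those of Cd34 and Emcn 2 CAGGAA matches each. In Emcn the nearest match began 67 bases before the start, and in Tie1 the match began 209 bases before it. Cd34, a sialomucin of the endothelial surface, had 256 FPKM, and Emcn, the sialomucin endomucin of capillaries and veins, had 166 FPKM.

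Genes of heart capillaries were the highest of the subtype lists. All 20 reached 1 FPKM, with a median of 205 FPKM. Fabp4, a carrier of fatty acids inside the cell, had 4060 FPKM, the second highest level of any nuclear protein-coding gene. Cd36, the surface receptor for long-chain fatty acids, had 1890 FPKM, and Gpihbp1, which holds lipoprotein lipase on the capillary wall, had 895 FPKM. Lpl, lipoprotein lipase itself, had 540 FPKM. Rgcc (689 FPKM) and Timp4 (542 FPKM), an inhibitor of metalloproteinases, were high as well, while the apelin receptor Aplnr (17.7 FPKM), the chemerin receptor Cmklr1 (13.5 FPKM) and the carbonic anhydrase Car14 (2.57 FPKM) were the lowest members. Genes of tip cells and angiogenic capillaries all reached 1 FPKM (14 of 14, median 26.9 FPKM). The 4 members of at least 100 FPKM were the type IV collagens Col4a1 (626 FPKM) and Col4a2 (434 FPKM), Igfbp3 (138 FPKM) and Trp53i11 (103 FPKM). Dll4 followed at 96.7 FPKM, while Apln stood at 14.1 FPKM and the tip cell gene Esm1 at 2.53 FPKM.

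Transcripts of the other vessel types were present at lower medians. Of 24 arterial genes 23 reached 1 FPKM (median 45.5 FPKM). Sox17, a factor of arterial identity, had 181 FPKM, the Notch ligand Dll4 had 96.7 FPKM, the secreted semaphorin Sema3g had 60.2 FPKM and the ephrin Efnb2 had 59.1 FPKM. The gap junction genes Gja4 (23.3 FPKM) and Gja5 (19.1 FPKM), which mark larger arteries, were lower. Of 16 venous genes 15 reached 1 FPKM (median 45.9 FPKM), among them Vwf, the carrier of clotting factor VIII and a ligand of platelets, at 137 FPKM, the Eph receptor Ephb4 at 76.3 FPKM and the venous nuclear receptor Nr2f2 at 14.7 FPKM. Ackr1, the chemokine-binding receptor of venules, stood just under the limit at 0.965 FPKM.

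All 18 lymphatic genes reached 1 FPKM, with a median of 22.5 FPKM. The chemokine gene Ccl21a had 195 FPKM, the hyaluronan receptor Lyve1 63.6 FPKM and the VEGF-C receptor Flt4 48 FPKM. The defining factor Prox1 was low at 2.99 FPKM and Pdpn at 2.86 FPKM. Lyve1, Mrc1 and Stab1 are also known from resident macrophages, and Ccl21a has near-identical copies among which reads may be split.

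Endocardial genes were the lowest of the subtype lists, with 16 of 20 at 1 FPKM or more and a median of 5.01 FPKM. The highest members were Vwf (137 FPKM), which is also in the venous list, Cytl1 (90.7 FPKM) and Cgnl1 (44.2 FPKM). The chamber marker Npr3, the clearance receptor for natriuretic peptides, had 14.8 FPKM and the factor Nfatc1 16.8 FPKM. Nrg1, the neuregulin that endocardium sends to muscle, stood at 0.366 FPKM, and Bmp10 at the lowest value of the table. Lists of endothelium from other organs varied. Of brain genes 3 of 10 (30%) reached 1 FPKM, of liver sinusoid genes 7 of 13 (53.8%) and of lung genes 7 of 9 (77.8%). Their medians were 0.501, 1.03 and 6.96 FPKM. The share of liver sinusoid genes lies near the 52.4% of all nuclear protein-coding genes. The lung list shares Car4 and Apln, and the liver list Lyve1, Mrc1 and Gata4, with the subtype lists above. The brain genes Mfsd2a (0.193 FPKM) and Slco1c1 (0.307 FPKM) were below 1 FPKM.

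**Figure D2:**
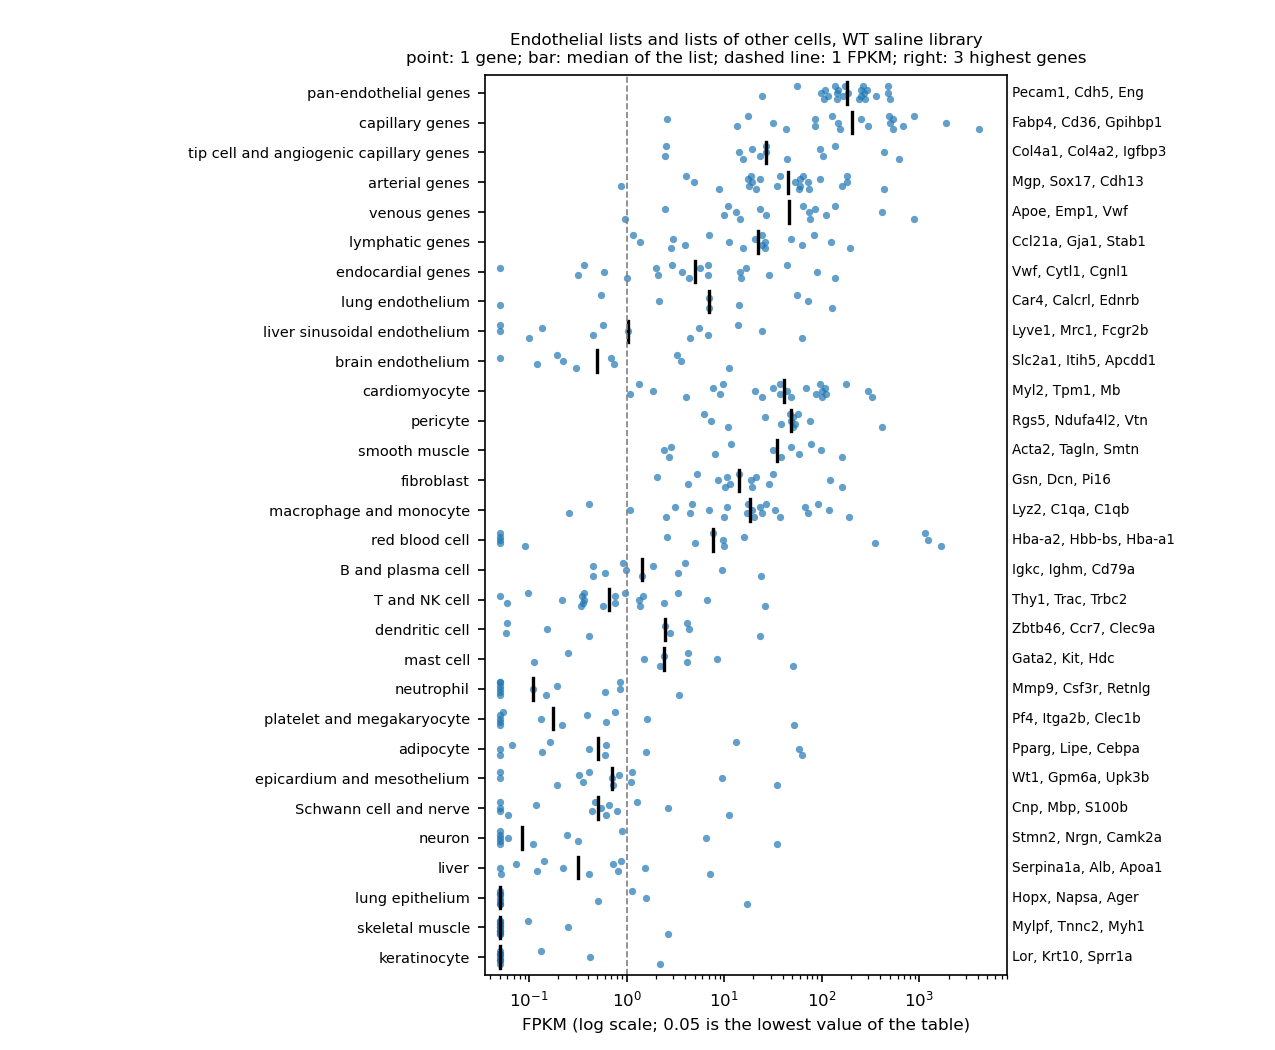
FPKM (log scale) of each gene of 7 endothelial lists, 3 lists of endothelium from other organs and 20 lists of other cells in the WT saline library, with a point per gene, a bar at the list's median and the 3 highest genes named at the right. The general and capillary lists lie highest, at medians of 180 and 205 FPKM, pericyte (48.8 FPKM), venous (45.9 FPKM), arterial (45.5 FPKM), cardiomyocyte (40.7 FPKM) and smooth muscle (35 FPKM) lists follow, and lung epithelium, skeletal muscle and keratinocyte lists have their medians at the lowest value of the table.

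RNA of other cells was present beside that of endothelium. In a bulk library fewer cells of a type cannot be told apart from less RNA per cell, so these levels give no share of cells. All 24 cardiomyocyte genes reached 1 FPKM, with a median of 40.7 FPKM and 0.345% of the summed FPKM. The myosin light chain Myl2 had 329 FPKM, the oxygen-binding protein Mb 179 FPKM, the troponins Tnni3 101 FPKM and Tnnt2 100 FPKM, and the myosin heavy chain Myh6 68.5 FPKM. Transcripts of the giant proteins Ttn (1.34 FPKM) and Ryr2 (1.08 FPKM) stood at the limit. Tpm1 (299 FPKM) and Atp2a2 (111 FPKM) of this list are also made by cells other than cardiomyocytes.

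Mural cells, which wrap capillaries and arterioles, were represented by whole lists. Of 13 pericyte genes all reached 1 FPKM (median 48.8 FPKM): Rgs5, a regulator of G protein signaling, had 414 FPKM, the receptor Pdgfrb 50.6 FPKM and the potassium channel pair Abcc9 and Kcnj8 50.4 and 38.1 FPKM. The 12 smooth muscle genes all reached 1 FPKM too (median 35 FPKM), with Acta2 at 161 FPKM, Tagln at 98.1 FPKM and Myh11 at 58.7 FPKM, while Cnn1 stood at 2.74 FPKM. All 15 fibroblast genes reached 1 FPKM at a lower median of 14.2 FPKM, with Dcn at 123 FPKM, Pdgfra at 4.24 FPKM and Col1a1 at 11.6 FPKM.

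Among blood and immune cells, macrophage and red cell transcripts were the clearest. Of 24 macrophage and monocyte genes 22 reached 1 FPKM (median 18.5 FPKM). Lysozyme Lyz2 had 192 FPKM, the complement genes C1qa, C1qb and C1qc 118, 92 and 72.3 FPKM, the growth factor receptor Csf1r 37.3 FPKM and the leukocyte antigen Ptprc 7.06 FPKM, while Ccr2 (0.411 FPKM) and Cx3cr1 (0.257 FPKM), receptors of monocytes and other macrophages, were below 1 FPKM. The globin genes Hba-a2, Hbb-bs, Hba-a1 and Hbb-bt had 1665, 1235, 1157 and 350 FPKM although the hearts had been perfused, and globins took 0.864% of the summed FPKM. Of 15 red cell genes 10 reached 1 FPKM, among them Alas2 (15.9 FPKM), Fech (10.1 FPKM) and Bpgm (7.63 FPKM) beside the globins. Rhag and Klf1, which belong to red cell precursors, were at the lowest value of the table.

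Lists of other leukocytes and of platelets had lower medians. B and plasma cell genes reached 1 FPKM in 6 of 11 cases (54.5%), near the 52.4% of all nuclear protein-coding genes. Among them Igkc had 24 FPKM and Cd79a 3.97 FPKM. T and NK cell genes did so in 7 of 20 cases, with Trac at 6.74 FPKM and Cd3e at 0.577 FPKM. Thy1 (26.2 FPKM) in the T and NK cell list is also a lymphatic gene. Of 13 neutrophil genes only Mmp9 (3.49 FPKM) reached 1 FPKM, and S100a8 and Ly6g were at the lowest value. Of 12 platelet genes Pf4 (52.6 FPKM) and Itga2b (1.63 FPKM) did, and Gp5 and Gp6 were at the lowest value. Mast cell genes reached the limit in 7 of 9 cases, with Mcpt4 at 4.15 FPKM and Cma1 at 1.5 FPKM. Dendritic cell genes did so in 5 of 9 (55.6%, again near the background), with Clec9a at 4.12 FPKM. Gata2 (51.5 FPKM) and Zbtb46 (23.5 FPKM), the highest members of the mast cell and dendritic cell lists, are known from endothelium as well.

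Adipocyte, epicardial, nerve and non-cardiac lists had medians below 1 FPKM, with single members above it. The fat cell genes Adipoq (0.412 FPKM) and Plin1 (0.0667 FPKM) were low, while Pparg (63 FPKM) and Lipe (59.3 FPKM) of the same list were not. In the epicardial list Wt1 had 34.5 FPKM and Gpm6a 9.61 FPKM, while Upk3b (1.14 FPKM), Msln (0.843 FPKM), Upk1b (0.354 FPKM) and Bnc1 (lowest value) were at or below the limit. Of 14 Schwann cell and nerve genes 3 reached 1 FPKM, led by Cnp (11.3 FPKM), and Sox10 stood at 0.549 FPKM. Liver genes reached 1 FPKM in 2 of 12 cases (Serpina1a 7.12 FPKM and Alb 1.54 FPKM), neuron genes in 2 of 12 (Stmn2 34.6 FPKM, also in the arterial list, and Nrgn 6.47 FPKM), skeletal muscle genes in 1 of 14 (Mylpf 2.68 FPKM) and keratinocyte genes in 1 of 10 (Lor 2.2 FPKM). Lung epithelium genes did so in 3 of 11 cases, and Sftpc and Scgb1a1 were at the lowest value.

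Receptors were described by 16 lists with 369 distinct genes, of which 250 (67.8%) reached 1 FPKM, against 52.4% of all nuclear protein-coding genes. The lists hold genes known from vessels, so the higher share is no result about receptors as such. Of the 250, 18 are also markers of other cells, such as Notch3, Pdgfrb, Csf1r and Cd163, and the cells that made their RNA cannot be told from these data.

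Receptors for VEGF and angiopoietins were among the highest. All 8 genes of the VEGF receptor list reached 1 FPKM, with a median of 192 FPKM. The list also counts genes that are not VEGF receptors themselves, its highest being the junction gene Cdh5 (475 FPKM), so this median is not that of receptors alone. The co-receptors Nrp1 and Nrp2 had 238 and 112 FPKM beside Flt1 (290 FPKM) and Kdr (253 FPKM). Of their ligands Vegfa and Vegfb stood at 17.4 FPKM each, Vegfc at 17.6 FPKM and Pgf at 19.3 FPKM. The angiopoietin receptor Tek (99.4 FPKM) stood beside the antagonist Angpt2 (15.6 FPKM), whereas the agonist Angpt1, known from mural cells, was at 0.955 FPKM.

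In the TGF-β family 11 of 15 receptors reached 1 FPKM (73.3%, against 52.4% of all nuclear protein-coding genes), with a median of 6.74 FPKM. Eng (474 FPKM) and the type I receptor Acvrl1 (ALK1, 141 FPKM), which together bind circulating bone morphogenetic proteins, were far above the TGF-β receptors Tgfbr2 (45.2 FPKM) and Tgfbr1 (9.61 FPKM) and the type II receptor Bmpr2 (26.5 FPKM). Bmpr1b, Acvr1c and Tdgf1 were at the lowest value. Among the transducers the inhibitory Smad7 (38 FPKM) and Smad6 (37.8 FPKM) and the shared Smad4 (27.6 FPKM) stood above Smad1 (23.5 FPKM), Smad5 (18.6 FPKM) and Smad2 (14.6 FPKM), while Smad3 had 2.95 FPKM and Smad9 0.774 FPKM. Of the ligands Tgfb1 had 98.4 FPKM and Bmp6 57.2 FPKM, and Tgfb2 had 2.1 FPKM.

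Of 9 Notch receptors and ligands 8 reached 1 FPKM (88.9%, against 52.4% of all nuclear protein-coding genes), in a chosen list. The endothelial receptors Notch1 (117 FPKM) and Notch4 (113 FPKM) and the ligands Jag2 (98.3 FPKM) and Dll4 (96.7 FPKM) were highest, and Notch2 (4.59 FPKM) and Dll3 (lowest value) were low. Notch3 (53.6 FPKM) is a mural cell gene. The targets Hes1 and Hey1 had 110 and 37.3 FPKM.

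Of 29 growth factor receptor kinases 17 reached 1 FPKM (58.6%, against 52.4% of all nuclear protein-coding genes), with a median of 1.73 FPKM. Fgfr3 (53 FPKM) stood above Fgfr1 (28 FPKM), Fgfr2 (0.566 FPKM) and Fgfr4 (0.22 FPKM). The insulin receptor Insr had 4.97 FPKM and the IGF receptor Igf1r 7.56 FPKM. Of the neuregulin receptors Erbb2 had 6.57 FPKM, Erbb3 0.478 FPKM and Erbb4 the lowest value.

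Of 21 Eph receptors and ephrins, which guide vessels and axons, 10 reached 1 FPKM (47.6%, near the background of 52.4%), led by Ephb4 (76.3 FPKM), Efnb2 (59.1 FPKM) and Efna1 (51.8 FPKM), and Epha3, Epha6 and Epha8 were at the lowest value. Of 19 semaphorin, Robo and netrin receptors 12 did (63.2%): Plxnd1, the plexin of vessels, had 168 FPKM, Robo4 107 FPKM and Unc5b 26.9 FPKM, while Robo1 (0.565 FPKM), Dcc, Unc5a, Unc5c and Unc5d were below the limit. In the Wnt list 15 of 22 genes did reach it, with the norrin receptor Fzd4 at 72.3 FPKM, its partners Lrp5 at 65 FPKM and Tspan12 at 34.6 FPKM, and the ligand Ndp at the lowest value.

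Of 35 genes in the list of receptors for vasoactive peptides and amines 17 reached 1 FPKM (48.6%, near the background of 52.4%), with a median of 0.93 FPKM. The adrenomedullin receptor parts Ramp2 (301 FPKM), Calcrl (72.4 FPKM) and Ramp3 (54.6 FPKM) led with the scavenging receptor Ackr3 (119 FPKM), followed by the endothelin receptor Ednrb (55.9 FPKM) and the natriuretic peptide receptor Npr1 (51.1 FPKM). Ednra, known from smooth muscle, had 7.34 FPKM. Receptors for amines were lower: Htr2a had 2.14 FPKM, Chrm3 0.93 FPKM, Hrh1 0.651 FPKM and the cardiomyocyte receptor Adrb1 0.413 FPKM. Agtr1a, the angiotensin receptor, had 4.3 FPKM and Agtr2 the lowest value.

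Of 37 receptors for nucleotides, lipids and proteases 25 reached 1 FPKM (67.6%, against 52.4% of all nuclear protein-coding genes). S1pr1, the receptor for sphingosine 1-phosphate that supports the barrier, had 232 FPKM, and S1pr3 25.6 FPKM. The thrombin receptor F2r had 49 FPKM, the adenosine receptor Adora2a 25.3 FPKM and the ATP receptor P2ry2 19.5 FPKM, whereas P2ry1 (0.432 FPKM) and Adora1 (0.0946 FPKM) were below the limit.

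Of 40 cytokine receptor genes 33 reached 1 FPKM (82.5%, against 52.4% of all nuclear protein-coding genes), in a chosen list. Their median was 8.24 FPKM, and none reached 100 FPKM. The highest were Ifngr1 (98.1 FPKM), Tnfrsf1a (95.1 FPKM), which binds TNF, and Il6st (69.1 FPKM), the signal chain shared by the IL-6 family. Osmr (49.4 FPKM) and Lifr (14.9 FPKM), which pair with Il6st, were present, and Il6ra had 5.14 FPKM. Il1r1 had 10.1 FPKM, and Il22ra1 (0.0614 FPKM) and Ifnlr1 (0.0721 FPKM), known from epithelia, were near the lowest value. Of 17 chemokine receptors 9 reached 1 FPKM (52.9%), a share near the 52.4% of all nuclear protein-coding genes: after Ackr3 came Cxcr4 (27 FPKM) and Ccrl2 (21.4 FPKM), and Cxcr1 and Cxcr2 were at the lowest value. Among sensors of microbial and nucleic acid patterns 18 of 21 reached 1 FPKM (85.7%). Tmem173 (STING, 24.9 FPKM) and Nod1 (23.7 FPKM) stood above Tlr4 (5.52 FPKM), Tlr3 (8.04 FPKM) and Tlr9 (0.374 FPKM).

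Of 38 nuclear receptors 21 reached 1 FPKM (55.3%, near the background of 52.4%), 14 stood between the lowest value and 1 FPKM, and 3 at the lowest value. Nr4a1 (298 FPKM), an immediate early gene, was the highest, followed by the clock repressor Nr1d1 (92.8 FPKM), the liver X receptor Nr1h2 (67.4 FPKM) and Pparg (63 FPKM), a regulator of fatty acid genes in capillaries. The glucocorticoid receptor Nr3c1 had 40.8 FPKM and the mineralocorticoid receptor Nr3c2 5.39 FPKM. The estrogen and progesterone receptors Esr1 (0.217 FPKM), Esr2 and Pgr (both lowest value) were below the limit, as was Ppara (0.276 FPKM).

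**Figure D3:**
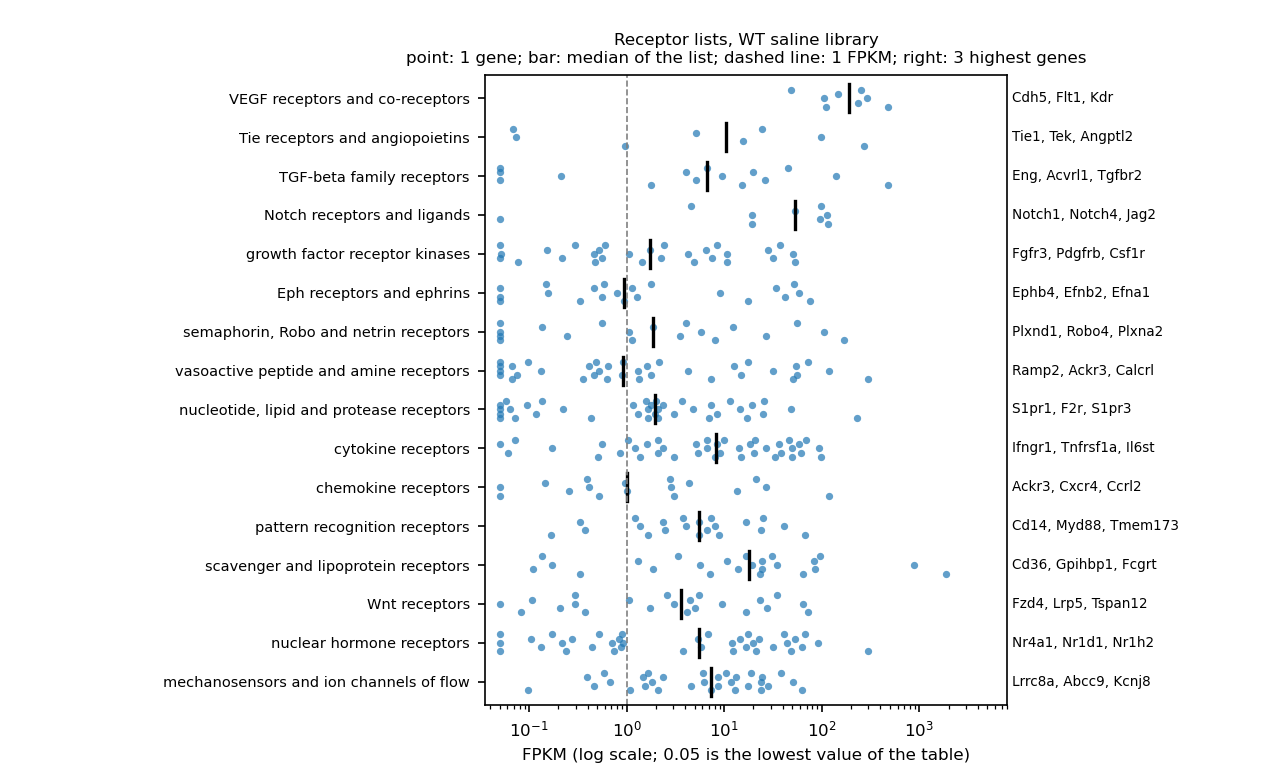
FPKM (log scale) of each gene of the 16 receptor lists in the WT saline library, with a point per gene, a bar at the median and the 3 highest genes named at the right. The VEGF receptor list, which also counts Cdh5, has the highest median (192 FPKM), and 4 lists (vasoactive, Eph, chemokine and growth factor kinase receptors) have medians of 0.93 to 1.73 FPKM.

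Of 32 listed channels and sensors of flow 1 was not analysed here, and 26 of the other 31 reached 1 FPKM, with a median of 7.32 FPKM. The volume-regulated channel part Lrrc8a had 63.2 FPKM, the polycystins Pkd1 and Pkd2 had 23.8 and 28.4 FPKM and the calcium channel Trpv4 had 13.3 FPKM. Over whole symbol families, 20 of 89 potassium channel genes reached 1 FPKM, 37 stood below it and 32 at the lowest value, and Kcna5 (103 FPKM) was the highest of them. Of 1050 olfactory receptor genes 4 reached 1 FPKM (0.381%), led by Olfr558 (9.82 FPKM), and 947 were at the lowest value.

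Transport genes numbered 210 in 8 lists, of which 151 (71.9%) reached 1 FPKM, against 52.4% of all nuclear protein-coding genes. The lists were chosen with earlier results known, so this share is no result about transporters as such. Of 27 fatty acid genes 23 reached the limit, and by sum they were the highest of the 8 lists, at 1.66% of the summed FPKM, most of it from Fabp4 and Cd36. After Fabp4, Cd36, Gpihbp1 and Lpl came the monoglyceride lipase Mgll (489 FPKM) and Fabp5 (156 FPKM). The cardiomyocyte carrier Fabp3 had 68.7 FPKM. The fatty acid transport proteins were far below Cd36: Slc27a4 had 6.4 FPKM, Slc27a3 2.04 FPKM, Slc27a1 1.51 FPKM and Slc27a2 0.0879 FPKM.

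Glucose carriers were low in comparison. Slc2a1, the glucose carrier of most endothelia, had 11.2 FPKM and the insulin-responsive Slc2a4, known from muscle, 7.83 FPKM, while Slc2a2 and Slc2a5 were at the lowest value. The lactate carriers Slc16a3 and Slc16a1 had 6.59 and 4.23 FPKM, and their chaperone Bsg had 280 FPKM.

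Of 30 carriers of nucleosides, vitamins and organic ions 16 reached 1 FPKM (53.3%), near the background of 52.4%. Slc43a3, kept in the amino acid list but known as a carrier of purine nucleobases, had 224 FPKM, the concentrative nucleoside carrier Slc28a2 had 85.3 FPKM and the equilibrative carrier Slc29a1 had 57.6 FPKM, whereas the related Slc29a3 (2.96 FPKM), Slc29a2 (0.321 FPKM), Slc28a3 (0.086 FPKM) and Slc28a1 (lowest value) were lower. Over the whole Slc family 166 of 341 genes reached 1 FPKM (48.7%). Among amino acid carriers proper Slc38a2 (97.1 FPKM), the taurine carrier Slc6a6 (72.9 FPKM) and Slc3a2 (66.6 FPKM) were highest, and Slc7a11 (0.125 FPKM) was below the limit. Spns2, which exports sphingosine 1-phosphate, had 32.2 FPKM.

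Water and ions were served by a few abundant genes. Aqp1, the water channel of capillaries, had 1841 FPKM, and Aqp7, which also carries glycerol, had 32.1 FPKM, while 6 of the 11 aquaporins were at the lowest value. The carbonic anhydrase Car4 on the vessel surface had 127 FPKM. Slc9a3r2 (516 FPKM) is a scaffold and not itself a carrier. The iron storage chains Ftl1 (1257 FPKM) and Fth1 (909 FPKM) were high beside the transferrin receptor Tfrc (9.74 FPKM) and the exporter Slc40a1 (3.55 FPKM). Of the drug exporters Abcg2 had 80.5 FPKM, Abcb1a 44.6 FPKM and Abcb1b 22.3 FPKM, and of 15 genes known from transport at the blood-brain barrier 9 reached 1 FPKM, with Slc22a8 at the lowest value.

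Transcription factor lists held 269 distinct genes, of which 201 (74.7%) reached 1 FPKM, with a median of 12.1 FPKM. Of all nuclear protein-coding genes 52.4% did, but the lists were chosen, so this share is no result about factors as such. Counted with them are the 37 immediate early and stress genes, all of at least 1 FPKM. Some of these, such as Dusp1, Socs3 and Hspa1a, are not transcription factors, so the share and median are not those of factors alone. Of 26 ETS factors 18 reached the limit: Ets1 had 132 FPKM, Ets2 105 FPKM, Elk3 83.1 FPKM, Erg 55.3 FPKM and Fli1 23.8 FPKM. Etv2, which starts the endothelial lineage in the embryo, stood at 0.0914 FPKM, and the epithelial factors Elf3, Elf5, Ehf and Spdef at 0.204 FPKM or less. Sox17 (181 FPKM), Sox18 (145 FPKM) and Sox7 (83.5 FPKM), which form the SoxF group of endothelium, stood above Sox13 (32.1 FPKM) and Sox4 (11.2 FPKM), while 11 of 19 members were below 1 FPKM and 6 of these, among them Sox1, Sox2 and Sox3, were at the lowest value.

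KLF factors were abundant. Klf2, the flow-responsive factor, had 1069 FPKM, Klf4 824 FPKM, Klf6 297 FPKM and Klf9 115 FPKM, and 12 of 17 Klf genes reached 1 FPKM. Klf1, of red cell precursors, was at the lowest value. Klf2, Klf4 and Klf6 also belong to the immediate early genes described below. Of the GATA family Gata2 had 51.5 FPKM, Gata6 8.47 FPKM and Gata4 6.81 FPKM, with Gata1 at the lowest value. Factors of the blood and endothelial lineage were present, with Ldb2 at 53.8 FPKM, Bcl6b at 52.4 FPKM, Lmo2 at 29.9 FPKM and Tal1 at 11.1 FPKM.

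Forkhead factors were led by Foxp1 (40.7 FPKM) and Foxo4 (23.1 FPKM), with Foxc1 at 14.4 FPKM and Foxo1 at 7.43 FPKM, and 16 of 30 were below 1 FPKM. The DNA-binding antagonists Id1 (548 FPKM), a target of bone morphogenetic proteins, and Id3 (261 FPKM) were high. Epas1 (HIF-2α) had 217 FPKM, above Hif1a at 26.1 FPKM. Tcf15 (85.7 FPKM) and Meox2 (42.8 FPKM), which together drive fatty acid genes in heart capillaries, were both present. Of the Hippo effectors Wwtr1 (TAZ) had 80.7 FPKM and Yap1 33.3 FPKM.

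Factors of the heart field were a mixture. Wt1 (34.5 FPKM) and Tbx3 (27.5 FPKM) were highest, whereas Nkx2-5 (1.78 FPKM), Tbx20 (3.51 FPKM), Tbx5 (0.544 FPKM) and Isl1 (lowest value) were low. Of 39 Hox genes 4 reached 1 FPKM, Hoxb4 being the highest at 2.74 FPKM, and of 9 Pax genes none did (5 at the lowest value). The interferon factor Irf1 had 389 FPKM and Stat3 86.2 FPKM.

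Immediate early and stress genes had the highest median of the transcription factor lists. This list was chosen with earlier results known as well, so its counts are no result about such genes as such. All 37 reached 1 FPKM, against 52.4% of all nuclear protein-coding genes. All 37 also reached 10 FPKM, 25 reached 100 FPKM, and the median was 274 FPKM. They took 3.97% of the summed FPKM, against 9.09% for ribosomal protein genes and 10.5% for mitochondrially encoded genes. Fos had 2822 FPKM, the mRNA decay factor Zfp36 2064 FPKM, Egr1 1740 FPKM, Junb 1712 FPKM, Fosb 1491 FPKM and Atf3 1078 FPKM. The phosphatase Dusp1 (989 FPKM), the cytokine signaling inhibitor Socs3 (683 FPKM) and the heat shock genes Hspa1a (248 FPKM) and Hspa1b (176 FPKM, near-identical to it) belonged to the same list. Fosl1 (11.5 FPKM) was the lowest. Such genes are known to respond within minutes to handling of tissue, and the cells had gone through digestion and 2 rounds of column selection, whose part in these levels was not tested.

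**Figure D4:**
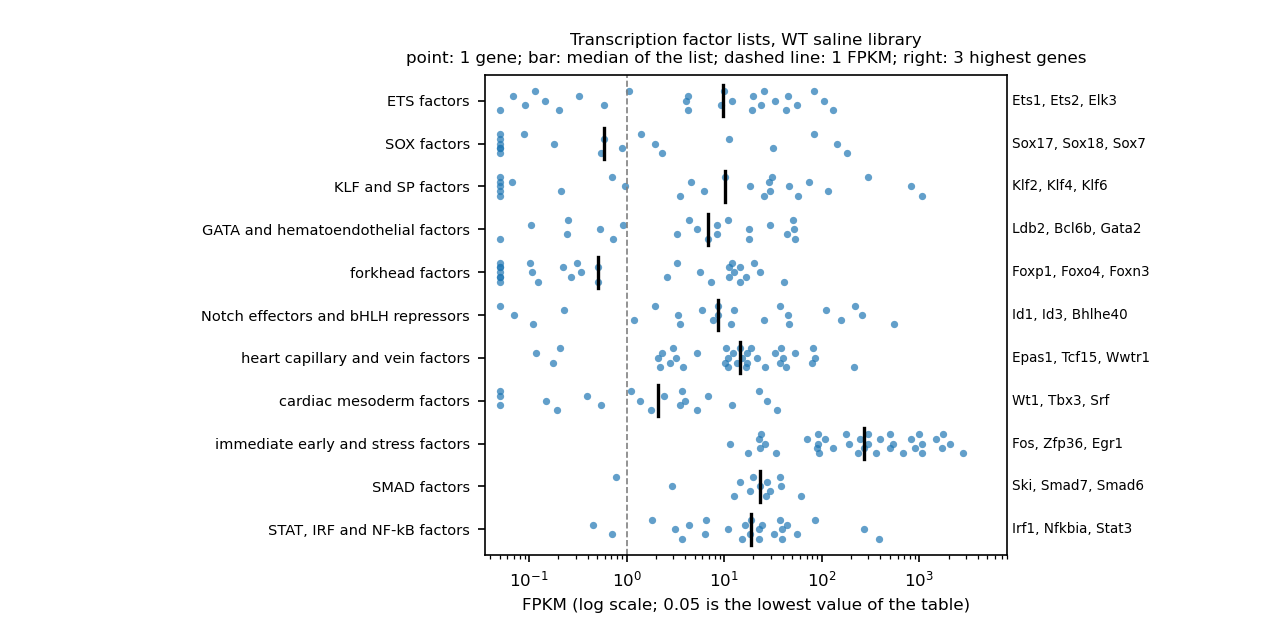
FPKM (log scale) of each gene of the 11 transcription factor lists in the WT saline library, with a point per gene, a bar at the median and the 3 highest genes named at the right. Immediate early genes lie apart at a median of 274 FPKM, while SOX and forkhead factors have medians below 1 FPKM with a few high members.

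Matrix genes numbered 200 in 6 lists, and 170 (85%) reached 1 FPKM, against 52.4% of all nuclear protein-coding genes. As with the other chosen lists, this share is no result about matrix genes as such. By median the basement membrane was the highest (25.5 FPKM), and by sum the matrix glycoproteins and proteoglycans were (0.917% of the summed FPKM, against 0.61% for the basement membrane). Sparc, a collagen-binding protein, had 1023 FPKM, the collagen chains Col4a1 and Col4a2 had 626 and 434 FPKM, and the proteoglycan perlecan, Hspg2, had 291 FPKM. Of the laminin chains Lamb2 (138 FPKM), Lama4 (82.8 FPKM), Lamc1 (81.7 FPKM), Lamb1 (49 FPKM) and Lama5 (28.8 FPKM) were high, and Lama1, of embryonic membranes, was at the lowest value. The chains Col4a3 to Col4a6 were between 0.337 and 1.8 FPKM.

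Fibrillar collagens were far lower than these: Col3a1 had 19.3 FPKM, Col1a2 18.9 FPKM and Col1a1 11.6 FPKM. These are also fibroblast markers. Secreted proteins of the vessel wall included Sparcl1 (999 FPKM), Igfbp7 (725 FPKM), Ltbp4 (491 FPKM), which stores latent TGF-β, and the calcification inhibitor Mgp (431 FPKM), while fibronectin Fn1 had 90.9 FPKM. The protease Adamts1 (628 FPKM) and the inhibitors Timp3 (596 FPKM) and Timp4 (542 FPKM) were above the metalloproteinases, of which the membrane-bound Mmp15 (50.5 FPKM) was highest and Mmp8 was at the lowest value. Timp3 lies within Syn3 on the opposite strand, and their reads cannot be told apart without strand. Timp1 had 2.95 FPKM.

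Of 26 integrin chains 18 reached 1 FPKM. The shared chain Itgb1 had 335 FPKM, and of its partners the laminin-binding Itga6 had 222 FPKM, the collagen-binding Itga1 42.3 FPKM and the fibronectin-binding Itga5 33.7 FPKM. Itgav had 6.79 FPKM and the leukocyte chain Itgb2 6.72 FPKM. On the luminal side, 26 of 27 glycocalyx genes reached 1 FPKM, led by the sialomucins Podxl (313 FPKM), Cd34 and Emcn and the syndecan Sdc3 (114 FPKM). Has2, which makes hyaluronan, stood at 0.169 FPKM.

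Junction genes numbered 114, of which 70 (61.4%) reached 1 FPKM, against 52.4% of all nuclear protein-coding genes, and these lists were chosen as well. The adherens junction was the most complete, with 22 of 26 genes and a median of 56.8 FPKM. Beside Cdh5, its catenins Ctnnb1 (331 FPKM), Ctnna1 (232 FPKM), Jup (216 FPKM) and Ctnnd1 (76.4 FPKM) were high, as was the phosphatase Ptprb (147 FPKM). The epithelial cadherins Cdh1 and Cdh3 stood at 0.0847 and 0.0571 FPKM, and Cdh2 at 2.53 FPKM.

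Tight junctions were built from fewer genes. Esam (357 FPKM), Jam2 (155 FPKM) and Cldn5 (137 FPKM) led, with the scaffold Tjp1 at 60.4 FPKM. Of 33 claudin genes 5 reached 1 FPKM, and after Cldn5 came Cldn12 (29.1 FPKM) and Cldn15 (12.8 FPKM), while Cldn1, Cldn2 and Cldn4 were at the lowest value and occludin, Ocln, had 0.748 FPKM. Of 19 gap junction genes 6 reached 1 FPKM, among them Gja1 (125 FPKM), which cardiomyocytes also make, Gjc1 (33.4 FPKM), Gja4, Gja5 and Panx1 (1.67 FPKM). Desmosomal genes other than Jup were at 4.68 FPKM (Ppl) or less.

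Adhesion molecules for leukocytes were present at graded levels. Icam2 had 175 FPKM, Icam1 106 FPKM, Vcam1 26.8 FPKM, and the selectins Selp 13.3 FPKM and Sele 10.6 FPKM. Madcam1 (0.0924 FPKM) and Glycam1 (lowest value), which belong to gut and lymph node vessels, were not detected above 0.1 FPKM.

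**Figure D5:**
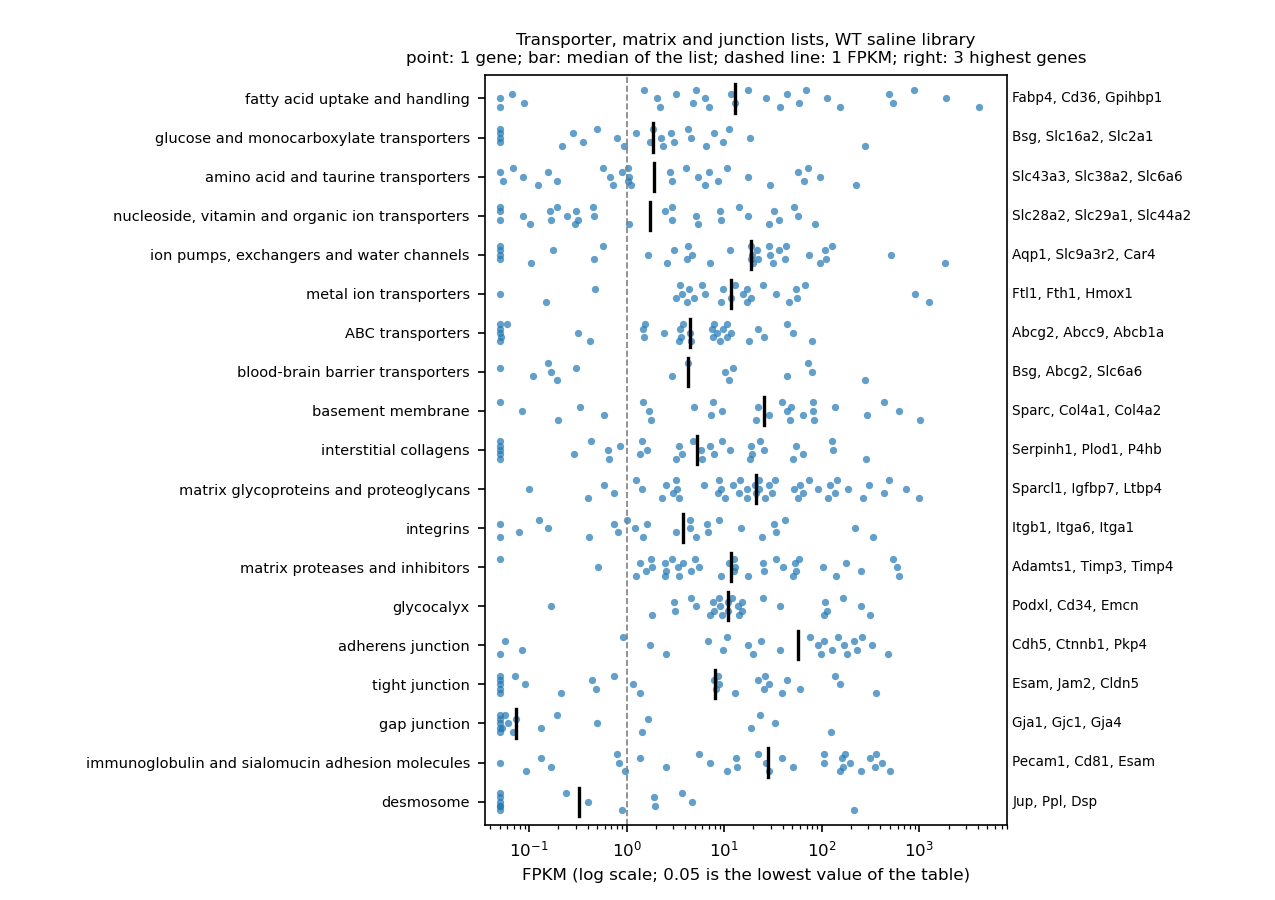
FPKM (log scale) of each gene of 8 transporter, 6 matrix and 5 junction lists in the WT saline library, with a point per gene, a bar at the median and the 3 highest genes named at the right. The adherens junction has the highest median (56.8 FPKM), single genes such as Fabp4 (4060 FPKM) and Aqp1 (1841 FPKM) lie far above their lists, and the median gap junction gene lies at 0.0731 FPKM.

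Genes by which endothelium acts on blood and on its neighbours completed the picture. Of 31 clotting and fibrinolysis genes 21 reached 1 FPKM: thrombomodulin, Thbd, had 272 FPKM, the ectonucleotidase Entpd1 177 FPKM and tissue plasminogen activator, Plat, 53.1 FPKM. Tissue factor, F3, stood at 0.927 FPKM and F8 at 0.245 FPKM. The caveolar genes Cav1 (1226 FPKM), Ptrf (Cavin1, 522 FPKM), Sdpr (Cavin2, 309 FPKM) and Cav2 (214 FPKM) were high, whereas the muscle forms Cav3 (0.917 FPKM) and Murc (Cavin4, 0.812 FPKM) were below 1 FPKM. Plvap, of fenestrae and veins, had 65 FPKM.

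Of secreted growth factors 51 of 77 reached 1 FPKM (66.2%, against 52.4% of all nuclear protein-coding genes), and this list was chosen as well. The chemokine Cxcl12 (301 FPKM), the Kit ligand Kitl (155 FPKM), Sema3f (135 FPKM), Tgfb1 (98.4 FPKM), Igf2 (95.9 FPKM) and Pdgfb (84.6 FPKM), which recruits pericytes, were the highest. Fgf2 (0.574 FPKM), Wnt5a (0.302 FPKM) and Shh (lowest value) were below the limit. Among inflammatory chemokines Cxcl1 had 119 FPKM, Cxcl2 88.8 FPKM, Ccl7 55.2 FPKM and Ccl2 48.9 FPKM, and Il6 had 34.7 FPKM.

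In the vasodilator and vasoconstrictor pathways Nos3 had 109 FPKM, Ace 51.7 FPKM, Edn1 8.8 FPKM and Ptgis, which makes prostacyclin, 12.4 FPKM. Ece1, the endothelin-converting enzyme, had 4144 FPKM, the highest value of any nuclear protein-coding gene. Its 4 annotated transcripts run from 172 to 4816 bases, and the shortest is below the 280 bases that the depth fit takes off each transcript. Among the 30 highest nuclear protein-coding genes 3 have such a short transcript (Ece1, Actb and Rps27; 10%), against 6.6% of the 11277 genes kept, and how the FPKM of Ece1 splits over its transcripts was not tested.

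The remaining abundant genes belonged to the machinery of most cells and to surface proteins in no list. Among the 30 highest nuclear protein-coding genes were Eef1a1 (3288 FPKM), Actb (3160 FPKM), Tmsb4x (2464 FPKM), Tpt1 (2188 FPKM), Hspa8 (1665 FPKM) and 6 ribosomal protein genes. Of the genes outside the lists, the surface proteins Ly6c1 (1878 FPKM), Ly6e (1297 FPKM) and Ly6a (789 FPKM), the retinol-binding protein Rbp7 (1753 FPKM), the intermediate filament Vim (1077 FPKM), the selenium carrier Sepp1 (Selenop, 485 FPKM) and the tetraspanin Tspan7 (469 FPKM) were among the highest. Ly6c1 and Ly6a have close relatives, among them Ly6c2 (33 FPKM), with which reads may be shared. Of 29 division genes 23 reached 1 FPKM (79.3%), at a median of 3.24 FPKM. The cell cycle inhibitor Cdkn1a had 469 FPKM and the cyclins Ccnd1 and Ccnd3 127 and 118 FPKM, whereas the proliferation marker Mki67 had 2.35 FPKM, Top2a 3.24 FPKM, Ccnb1 0.865 FPKM and Cdkn2a 0.342 FPKM.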

How the data were processed

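RNA of heart endothelial cells of the WT saline group was sequenced as paired ends, by a company according to the study's methods. The table deposited by the authors gives FPKM values, and the WT saline column alone was used. CASAVA, STAR and the build GRCm38.p4 are listed in the submitters' processing notes, but TopHat, Bowtie, Cufflinks and a human build stand in the study's general RNA sequencing methods, which leaves the aligner uncertain. The labels name an NEB library, while the kit described in the methods may be that of other libraries. The sources used here give neither the annotation release nor the use of strand, so overlapping, antisense and near-identical genes cannot be told apart.

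The table held 45952 lines for 45882 gene IDs. Lines that share an ID (121 lines of 51 IDs) were summed, and 1 value below 0.05 was set to 0.05. Symbols had become dates for 27 IDs, so IDs were used. All 4 per-sample columns matched a sample (0 unmatched). Gene types, positions and lengths came from GENCODE vM21 (GRCm38), which held 45038 of the IDs. Counts, medians and sums were taken with Python 3 (pandas and numpy). A minimum of 1 FPKM defined the genes kept. Of 85 lists (1932 entries, 1675 distinct genes) 13 symbols were not analysed here, and where a symbol fitted several IDs the highest was used. The 37 symbol families were matched by pattern. Members, lists, motifs and the naming rule were chosen with earlier results of these data known. Named were the 4 markers, the highest genes of the table, up to 10 high and 5 low members per list, any member of at least 1 FPKM of the receptor, ligand, factor, matrix and junction lists, all defining markers of other cells, and up to 20 abundant genes outside the lists. Other genes below 1 FPKM were named after their values were seen. The depth fit was tested on 2 simulated tables and recovered the depth within 2% in both. Alternatives were a minimum of 0.5 or 5 FPKM, a sum of 1000000 (TPM), a table without mitochondrially encoded and globin genes, the highest line per ID, and nuclear protein-coding genes only. No paired analysis was possible because there was 1 library and no test.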

Additional observations from a re-analysis of the deposited data

How the results depend on the processing

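The number of genes kept moved by over 1.5 times under a single alternative: a minimum of 5 FPKM left 8219 genes in place of 12343. A minimum of 0.5 FPKM gave 13870, rescaling to TPM 13827, rescaling without mitochondrially encoded and globin genes 12600, the highest line of each ID 12343 and nuclear protein-coding genes only 11277. Over the distinct list genes, 1162 of 1675 reached 1 FPKM, against 1275 at 0.5 FPKM and 854 at 5 FPKM. For single lists the count moved by over 1.5 times in 31 of 85 at 5 FPKM, in 7 at 0.5 FPKM, in 7 with TPM and in 0 with the highest line. The general endothelial list took 1.03% of the summed FPKM, 1.17% without mitochondrially encoded and globin genes and 1.33% of nuclear protein-coding genes only. Depth limits short and low genes most: with 500 bases of effective length, 1 FPKM rests on 14.2 fragments. With 1 library, differences between animals cannot be seen.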

Other observations

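Mitochondrially encoded genes and ribosomal RNA headed the table. Of 37 mitochondrial IDs 15 reached 1 FPKM and took 10.5% of the summed FPKM, with mt-Atp8 at 16281 FPKM and mt-Co1 at 8075 FPKM, while all 22 transfer RNA genes stood at the lowest value. mt-Atp8 has a transcript of 204 bases, shorter than the 280 bases taken off by the fitted length, and its FPKM is not comparable with those of longer genes. Ribosomal RNA was listed as Rn18s-rs5 at 8822 FPKM. RP24-423B3.1 (Gm43520), annotated as neither, ranked 4 among all IDs at 7987 FPKM. Its only transcript has 164 bases, also below 280 bases, so the same limit holds for it as for mt-Atp8. Of 101 ribosomal protein genes 95 reached 1 FPKM, with a median of 386 FPKM and 9.09% of the sum.

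A block of 7 pseudogenes on chromosome 1 (24611535 to 24616197, GRCm38) copied these mitochondrial levels. Over their whole aligned length, 5 were identical in sequence to a mitochondrial gene (100%), and the other 2 matched at 99.7% and 98.8%. Gm28437 had 2979 FPKM beside 2979 FPKM for mt-Co3, Gm28661 4518 FPKM beside 4505 FPKM for mt-Co2, Gm10925 2754 FPKM beside 2738 FPKM for mt-Atp6, Gm10222 3327 FPKM beside 3239 FPKM for mt-Nd4l, and Gm28438 1260 FPKM beside 1263 FPKM for mt-Nd3. Gm28439 (1263 FPKM) and Gm29216 (4279 FPKM), which match parts of longer genes, stood at 0.633 and 0.53 times mt-Nd4 (1996 FPKM) and mt-Co1 (8075 FPKM). Reads from identical sequences cannot be told apart, and transcription of the pseudogenes was not tested.

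Of the genes kept with a position, 2831 of 12285 (23%) overlap another such gene, 2454 of them on the opposite strand. Some high values sit in such pairs. Syn3, a synapsin known from neurons, had 240 FPKM, and its span on the minus strand of chromosome 10 (86055125 to 86498896) contains Timp3 (86300372 to 86349506, plus strand) at 596 FPKM, while the neuron list had a median of 0.0851 FPKM. The antisense gene Gm11175 had 925 FPKM within Jund, at 397 FPKM, and Gm37401 had 279 FPKM at the end of Rhoa, at 257 FPKM. Whether strand was used in counting is not given, and which gene of a pair made the RNA was not tested. These pairs were chosen after their values were seen.

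Long noncoding genes reached 1 FPKM in 442 of 6350 cases and 10 FPKM in 92. The highest were the IDs named Yam1 (1260 and 801 FPKM), which overlap Rn18s-rs5, and Gm11175 (925 FPKM). Malat1, a nuclear RNA, had 450 FPKM, H19, an imprinted RNA known from the fetus, 50.3 FPKM, Neat1 29.2 FPKM and Mir22hg 21.4 FPKM. All 2195 microRNA genes of the table stood at the lowest value. The sex of the label was checked after the values were seen: the Y-linked genes Ddx3y, Eif2s3y, Uty and Kdm5d had 26.2, 16.3, 4.12 and 3.01 FPKM, and Xist was at the lowest value.

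Antigen presentation was described by 17 of 19 genes at 1 FPKM or more. The class I genes B2m (819 FPKM), H2-D1 (418 FPKM) and H2-K1 (320 FPKM) were high, and class II genes were present, with Cd74 at 273 FPKM, H2-Aa at 92 FPKM, H2-Eb1 at 80.6 FPKM and H2-Ab1 at 78.8 FPKM, beside a class II activator gene, Ciita, at 0.389 FPKM. Class II genes are also known from macrophages, dendritic cells and B cells, whose marker levels stand above. Among energy genes 25 of 27 reached 1 FPKM, with Gapdh at 484 FPKM, Aldoa at 426 FPKM and the uncoupling protein Ucp2 at 241 FPKM, and Ppargc1a at 0.328 FPKM.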
